A study of Rattus norvegicus with 6 samples.

Results

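Transient receptor potential (TRP) channels are cation channels of the cell membrane, and 9 of their genes are described here in single cells of the rat brain after carbon monoxide (CO) poisoning: Trpv2, Trpv3, Trpv4, Trpm2, Trpm3, Trpm4, Trpm7, Trpc1 and Trpc6. All 9 were found among the 15227 genes of the files. The genes were chosen by name with earlier results of these data in view, and Trpv3 was selected on its CO over NC ratio in microglia-like and macrophage-like cells, so the values that follow are a description and carry no test. Libraries came from trypsin-digested cerebral hemisphere, 3 from negative control rats (NC) and 3 from rats that breathed CO at 1000 ppm for 40 min and then 3000 ppm for 20 min in a closed chamber. Poisoning counted as achieved when consciousness was impaired and carboxyhemoglobin exceeded 60%. The series text gives 3 rats in each group, and strain, sex, age and the time from exposure to tissue collection were not given in the labels. The title of the series names CLCF1, NF-κB and efferocytosis, the uptake of dying cells by macrophages.

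Most TRP channels admit calcium and sodium, and several are opened by heat, by swelling or stretch, by lipids or by products of oxidative stress. The vanilloid members (TRPV) are best known as sensors of warmth and osmotic change. Among the melastatin members (TRPM), TRPM2 is gated by ADP-ribose, TRPM4 passes monovalent cations when calcium rises, and TRPM7 joins a magnesium-permeable channel to a kinase. The canonical members (TRPC) open downstream of phospholipase C.

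The files held 42293 cell barcodes and between 39494470 and 47322264 counts per library. Filtering left 19664 NC cells, whose median count was 4755, and 16878 CO cells, whose median count was 5556. Clusters were named from marker genes, and a class was compared where each library held 20 or more of its cells, which 11 did. The labelled tissue was only partly reflected in the cells: neuron-like cells numbered 7 in NC and 62 in CO, and 223 pituitary-like cells were found in NC against 2 in CO. The 3 libraries of a group differed from each other about as much as cells drawn from 1 pool, with between-library variance at 0.972 to 1.091 times that expectation within groups and 12.938 to 18.262 times between NC and CO, in microglia-like, oligodendrocyte-like and endothelial-like cells. Each group was therefore counted as 1 sample, and library values are shown without an SD. In every library more non-zero values were 4 (7.57 to 7.66%) than 3 (7.31 to 7.44%) and more were 6 than 5. Intervals were for this reason computed on each summed count divided by 2, and they cover counting error only. Levels are CPM, counts scaled to a common library total and then by trimmed means, meant for comparing classes and groups within 1 gene and not between genes. Of 99 pairs of member and class, 67 reached 30 counts over both groups. CO was at least 2-fold higher in 14 of these (5.95% of all 110347 pairs of gene and class) and at least 2-fold lower in 8 (7.08% of all pairs). The 3 CO libraries all lay above the 3 NC libraries in 15 pairs and all below in 20, and these shares over all pairs were 17.8% and 18.0%. Since the genes were chosen on this contrast and had to reach a minimum count, nothing is read from these counts.

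**Figure D1:**
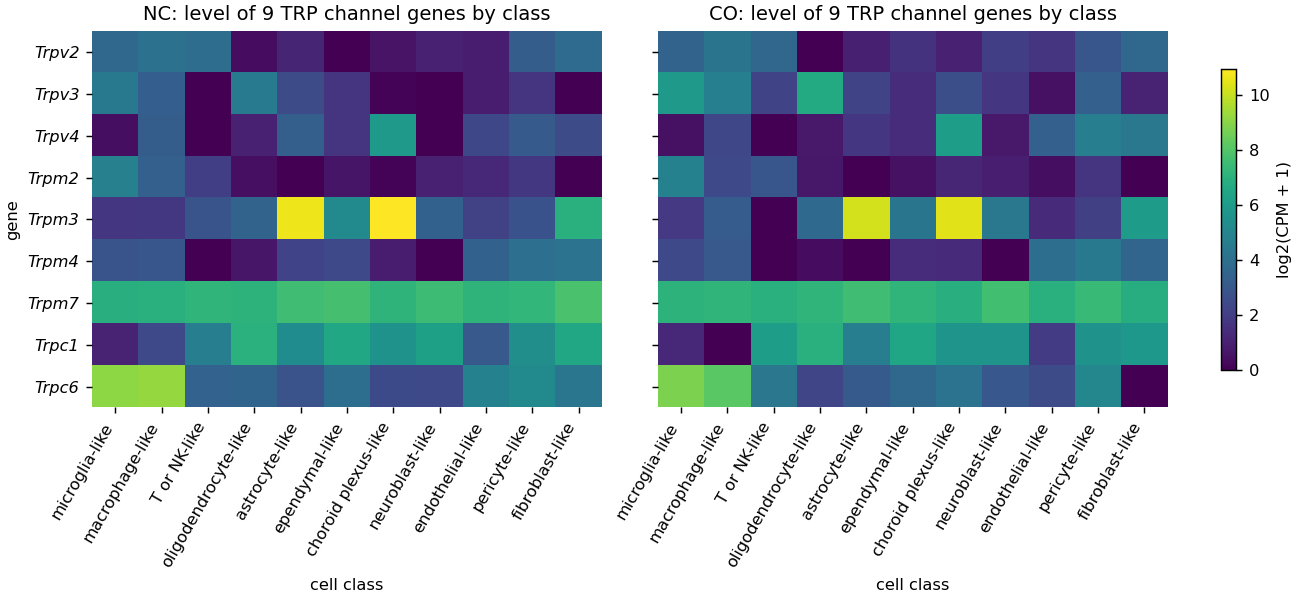
Level of each gene (rows) in each of the 11 compared classes (columns), NC on the left and CO on the right, as log2(CPM + 1) from the counts of 3 libraries together. Colours are to be compared along a row: Trpm7 is present in every class, Trpc6 is highest in microglia-like and macrophage-like cells, and Trpm3 in choroid plexus-like and astrocyte-like cells.

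Promoter windows were read from RefSeq for 8 of the 9 genes (Trpc1 had no entry), each the first 250 bases before a gene's start, on the GRCr8 build, 5′ to 3′ on the gene's own strand. They are shown for Trpv3 and Trpc6, on which the account of microglia-like cells turns, and for Aspa, the gene that overlaps Trpv3. Capitals mark ACGTG, the core bound by hypoxia-inducible factors, or GAGGAA, a core of the myeloid factor PU.1, each on either strand. Where CACGTG is read, ACGTG is present on both strands and counted once per strand, and this hexamer is also the E-box of other factors.
Trpv3 (chr10:58381804-58382053, plus strand): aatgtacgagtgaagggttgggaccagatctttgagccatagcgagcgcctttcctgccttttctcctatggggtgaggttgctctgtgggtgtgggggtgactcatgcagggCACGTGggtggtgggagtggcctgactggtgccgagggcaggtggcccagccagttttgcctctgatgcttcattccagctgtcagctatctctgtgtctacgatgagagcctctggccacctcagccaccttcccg
Aspa (chr10:58439038-58439287, minus strand): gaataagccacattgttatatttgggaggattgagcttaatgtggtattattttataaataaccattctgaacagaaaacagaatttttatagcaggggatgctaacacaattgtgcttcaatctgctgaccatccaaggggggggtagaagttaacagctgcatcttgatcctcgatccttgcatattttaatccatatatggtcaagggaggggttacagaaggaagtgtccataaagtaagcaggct
Trpc6 (chr8:14043966-14044215, plus strand): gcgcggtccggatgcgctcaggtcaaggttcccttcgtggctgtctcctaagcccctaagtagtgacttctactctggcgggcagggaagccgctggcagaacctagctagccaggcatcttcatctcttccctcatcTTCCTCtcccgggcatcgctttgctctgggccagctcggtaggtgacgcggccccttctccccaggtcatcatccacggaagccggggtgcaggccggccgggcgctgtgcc
The Trpv3 window held CACGTG, the Trpc6 window held GAGGAA on the opposite strand, and the Aspa window held neither. ACGTG also stood in the windows of Trpv4, Trpm2, Trpm4 and Trpm7, and in 16.6% of all 33469 promoter windows of this length. GAGGAA stood in 1 of the 2 Trpm3 windows and in 23.3% of all windows. These are matches of letters, not sites of binding.

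Trpv3 (ENSRNOG00000019606), a warmth-gated calcium channel best studied in skin keratinocytes, was counted mainly in oligodendrocyte-like and microglia-like cells and was higher in CO in both. In oligodendrocyte-like cells the 3 NC libraries had 22.2, 23.9 and 21.6 CPM and the 3 CO libraries 96.9, 106 and 99.4 CPM. The CO libraries were all above the NC libraries, and the group levels of 22.5 and 101 CPM were 4.48-fold apart, 2.16 on the log2 scale (95% counting interval 1.99 to 2.34). In microglia-like cells, the resident macrophages of the brain, the NC libraries had 24.4, 17.7 and 19.9 CPM and the CO libraries 57.3, 62.5 and 54.9 CPM. The groups again did not overlap, and the ratio was 2.82-fold, 1.50 on the log2 scale (1.33 to 1.67), on 748 and 2607 counts. Macrophage-like cells, whose markers are those of the brain's borders, had lower Trpv3: 7.17, 9.15 and 9.39 CPM in NC and 17.9, 35.6 and 21.9 CPM in CO. These libraries did not overlap either, and the ratio was 1.58 on the log2 scale (0.70 to 2.52) on only 32 and 76 counts. With doublets kept or with cells gated one by one, this last ratio was 2.23 and 2.25.

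Pericyte-like cells had 3.38, 4.02 and 0 CPM of Trpv3 in NC and 8.97, 9.68 and 8.94 CPM in CO, a log2 ratio of 2.06 (0.65 to 3.80) on 10 and 51 counts. Without the third NC library, which had no count, the ratio was 1.33. Of these counts, 7 in NC and 40 in CO lay in the shallower pericyte-like cluster, at a median depth of 2283.5 counts. It had 6.02 and 31.8 CPM of total counts, and the deeper cluster 0.919 and 2.49 CPM. Microglia markers in pericyte-like cells summed to 199 to 375 CPM in NC and 142 to 423 CPM in CO, with Siglech at 0 in both groups. Their part in the pericyte-like Trpv3 count was not tested. Choroid plexus-like cells had 1 count in NC and 53 in CO, a log2 ratio of 6.21 (2.87 to 16.25). Of those 53 counts, 50 came from 1 cluster of 45 NC and 492 CO cells, at a median depth of 1314 counts. Markers of microglia summed to 972 CPM in its CO cells, against 117 CPM in the CO cells of the other choroid plexus-like cluster, and their part in the Trpv3 count was not tested. In that other cluster Trpv3 had 1 count in 329 NC cells and 3 in 173 CO cells, so the ratio without the first cluster was 2.29 with an interval of -3.24 to 12.88. All 5 pairs of Trpv3 and class that reached 30 counts were at least 2-fold higher in CO with no overlap. Of all pairs of gene and class 5.95% were 2-fold higher, and nothing is read from the count, since Trpv3 was selected on 2 of these pairs and the choroid plexus-like one rests on 1 cluster.

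The order of classes by Trpv3 level was oligodendrocyte-like, microglia-like and macrophage-like in both groups. In NC the libraries of the first pair of classes overlapped (22.5 and 20.6 CPM), and both stood above macrophage-like cells. In CO each of these 3 classes and pericyte-like cells stood above the next with no overlap, at 101, 58.1, 25.6 and 9.21 CPM. The pericyte-like counts came mostly from the shallower pericyte-like cluster. The remaining classes lay at or below 5.20 CPM. T or NK-like, fibroblast-like and neuroblast-like cells had no Trpv3 count in NC, and endothelial-like cells had 0.818 CPM in NC and 0.388 CPM in CO.

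Trpv3 differed between microglia-like clusters. The cluster led by homeostatic genes such as P2ry12 (an ADP receptor), Cx3cr1 (the fractalkine receptor) and Slc2a5 (a fructose transporter) had 31.3 CPM in NC and 127 CPM in CO, on 172 and 1037 counts. The 2 largest clusters, both with Olr1 (a scavenger receptor) and Il6 (a cytokine) among their leading genes, had 24.3 and 15.4 CPM in NC and 49.8 and 36.8 CPM in CO. A smaller one led by Il1a (a cytokine), Cxcl10 and Icam1 had 6.91 and 17.8 CPM. CO was thus above NC in these 4 clusters, and in the fifth, of 16 NC and 31 CO cells, 6 and 4 counts gave 50.3 and 16.2 CPM. Among oligodendrocyte-like clusters, 3 had higher Trpv3 in CO (32.7 and 141 CPM, 12.3 and 44.5 CPM, 32.9 and 93.3 CPM), and the cluster of low-count cells had 3 counts in 1637 NC cells and none in 101 CO cells. Cluster values are CPM of total counts.

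The share of microglia-like cells with a Trpv3 count was 7.30% in NC and 19.8% in CO, at median depths of 5244 and 6086 counts. When every cell was thinned to 2000 counts and shallower cells left out (339 NC and 278 CO), the shares were 3.74% (exact binomial 3.28 to 4.24) and 9.55% (8.87 to 10.3). In oligodendrocyte-like cells the shares were 10.7% and 41.8%, and 4.56% and 20.0% after thinning, which left out 1856 NC and 245 CO cells. The shares before thinning include the low-count cluster of 1637 NC and 101 CO cells, whose class name depended on the clustering. Endothelial-like cells, a class with little Trpv3 in these data, had 0.319% and 0.141% of cells with a count at median depths of 4204 and 5137, and 0.0775% and 0.0529% after thinning. The 9 oligodendrocyte markers in microglia-like cells summed to 469 to 507 CPM in NC and 276 to 296 CPM in CO, all 9 above 0 and lower in CO, and their part in the Trpv3 values was not tested.

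The Trpv3 gene overlaps Aspa on the opposite strand. Aspa encodes aspartoacylase, which splits N-acetylaspartate in oligodendrocytes, and covers 74.2% of the Trpv3 span in RefSeq. The sources used here do not say whether counting used strand, so reads of the 2 genes cannot be told apart and the Trpv3 values are uncertain for that reason. Aspa was itself higher in CO in these classes. In oligodendrocyte-like cells it had 784, 752 and 759 CPM in NC and 1917, 1972 and 1900 CPM in CO, and in microglia-like cells 531, 530 and 540 CPM and 1022, 1021 and 1025 CPM. No CO library overlapped an NC library. The Aspa ratios were 1.33 and 0.94 on the log2 scale, smaller than those of Trpv3, and in macrophage-like cells Aspa had a ratio of 1.53 (232 and 671 CPM) and in pericyte-like cells 1.35.

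**Figure D2:**
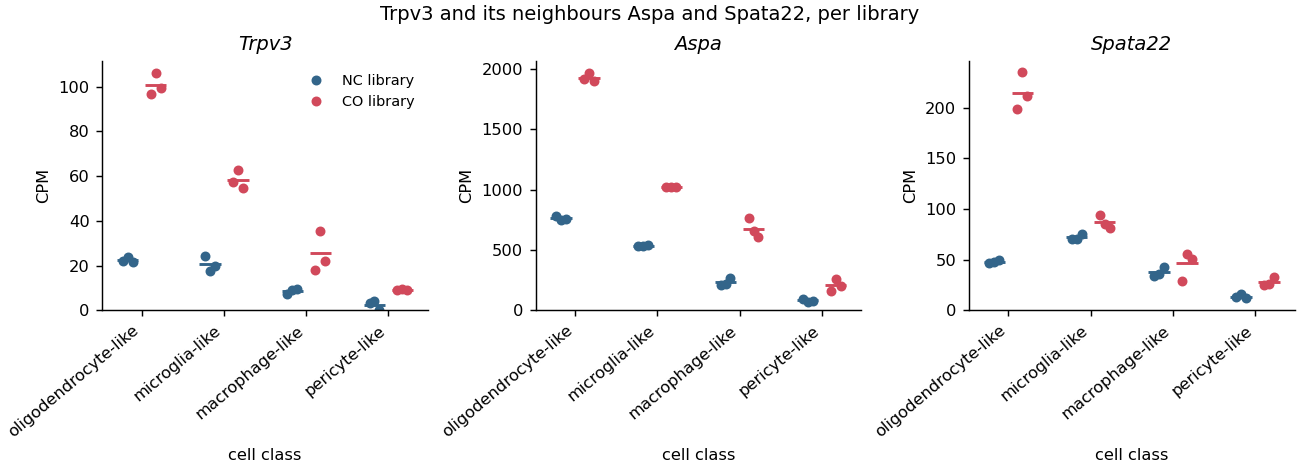
CPM of Trpv3, Aspa and Spata22 in 4 classes, with a point for each library and a bar at the group value. Trpv3 and Aspa are higher in every CO library than in every NC library in all 4 classes, and Spata22 differs most in oligodendrocyte-like cells.

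Per 100 Aspa counts, Trpv3 had 2.94 counts in NC and 5.22 in CO in oligodendrocyte-like cells. The library values were 2.83, 3.17 and 2.85 in NC and 5.05, 5.38 and 5.23 in CO, with no overlap. In microglia-like cells the ratio was 3.86 in NC and 5.69 in CO per 100 Aspa counts, with libraries at 4.59, 3.34 and 3.68 and at 5.60, 6.12 and 5.36. In macrophage-like cells it was 3.70 and 3.81, where the libraries overlapped. The part of Aspa reads in these Trpv3 values was not tested. Spata22, a meiosis gene at the other end of Aspa whose span Aspa covers by 0.308%, had the same ratio as Trpv3 in oligodendrocyte-like cells, 47.9 CPM in NC and 215 CPM in CO (2.16 on the log2 scale), and differed less in microglia-like cells, 72.1 and 86.7 CPM (0.27).

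Cells with more Aspa counts more often had a Trpv3 count. After thinning to 2000 counts, Trpv3 was found in 3.24% of NC microglia-like cells with no Aspa count (2.62 to 3.96), in 3.46% of those with 1 to 2 and in 6.30% of those with 3 or more. In CO the shares were 6.61%, 8.32% and 13.7%. Oligodendrocyte-like cells had 3.24%, 4.94% and 5.63% in NC and 12.1%, 12.4% and 25.4% in CO. Within bins of Aspa counts, the CO share was above the NC share in all 6 comparisons of these 2 classes. Aspa was higher in CO, so cells in the same bin can still differ in Aspa level, and counts of 3 or more span a range. These shares therefore do not compare cells at equal Aspa. In macrophage-like cells, with few cells, the shares were 0.879%, 1.28% and 12.9% in NC and 2.69%, 5.56% and 7.77% in CO, so that with 3 or more Aspa counts NC was the higher (4 of 31 cells against 8 of 103).

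**Figure D3:**
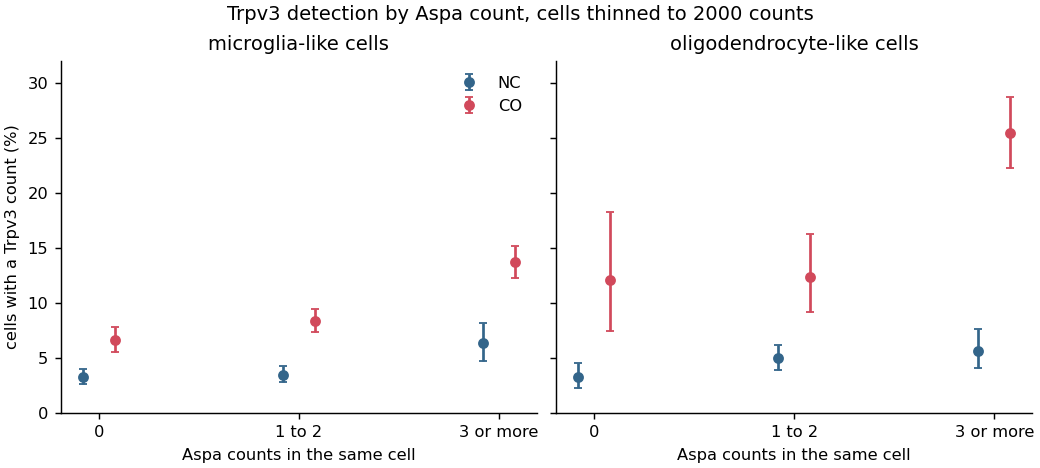
Percent of cells with a Trpv3 count (y axis) by the number of Aspa counts in the same cell (x axis), for microglia-like and oligodendrocyte-like cells thinned to 2000 counts, with exact 95% binomial intervals over cells. CO lies above NC in each bin of Aspa counts, and the highest share, 25.4%, is in CO oligodendrocyte-like cells with 3 or more Aspa counts.

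Over the NC levels of the 11 classes, the genes whose pattern was most like that of Trpv3 by Pearson r of log2(CPM + 1) were Slc15a4 (0.95), Pea15 (0.94), Ppt1 (0.94), Bhlhe41 (0.92) and Ptpra (0.91), of 12295 genes ranked. Aspa stood at rank 9 with 0.88, and over the CO levels its r with Trpv3 was 0.95. The 11 points come from the same libraries and differ in depth and cell number.

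Trpv4, an osmotic and mechanical sensor known in choroid plexus epithelium, was highest in choroid plexus-like cells. Its NC libraries had 58.2, 54.9 and 59.1 CPM and its CO libraries 83.1, 50.7 and 67.1 CPM. The groups overlapped, and the ratio was 0.21 on the log2 scale (0.00 to 0.42), turning to -1.11 when cells were thinned to 2000 counts, which left out 369 of 665 CO cells. The median depth of these cells was 40122 counts in NC and 1698 in CO. Choroid plexus-like cells stood above every other class in both groups. In the NC order, astrocyte-like, macrophage-like, pericyte-like, fibroblast-like and endothelial-like cells (8.90 to 4.15 CPM) each overlapped the next. The astrocyte-like value rested on 15 counts in 3 of 499 cells, with libraries at 3.24, 25.3 and 0 CPM.

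CO values of Trpv4 were higher in vascular classes, on few counts. Endothelial-like cells had 2.69, 5.30 and 4.58 CPM in NC and 9.13, 10.9 and 7.85 CPM in CO, with no overlap and a log2 ratio of 1.17 (0.54 to 1.81). The ratio was below 1 after thinning (0.88), with cells gated one by one (0.95) and without the first NC library (0.92), and most endothelial-like cells lay in a different cluster in each group (2538 of 3139 NC cells in one, 1851 of 2133 CO cells in another). Those main clusters had 3.36 CPM in NC and 5.59 CPM in CO, in CPM of total counts. A low-count cluster, at a median of 847 counts, held 23 of the 71 NC and 50 of the 120 CO counts, at 43.1 and 101 CPM. Pericyte-like cells had 5.40, 8.05 and 8.89 CPM in NC and 37.9, 25.0 and 7.03 CPM in CO. The third CO library was as low as NC, and all 34 and 136 counts came from 1 of the 2 pericyte-like clusters. Endothelial markers in pericyte-like cells summed to 7622 to 7864 CPM in NC and 8587 to 10394 CPM in CO, all 10 above 0. Their part in the pericyte-like Trpv4 values was not tested. Fibroblast-like cells had 4.68 and 19.8 CPM on 11 and 36 counts, with no overlap. The pericyte-like and fibroblast-like ratios of 1.71 and 2.08 turned to -0.55 and -0.43 after thinning. In macrophage-like cells Trpv4 was 8.30 CPM in NC and 4.04 CPM in CO, where libraries overlapped, and the log2 ratio of -1.04 was -0.38 without the third CO library. Microglia-like cells had 0.331 and 0.424 CPM. The genes most like Trpv4 over the NC classes were Slc31a1 (0.88), Ccdc126 (0.87), Atp6v0e1 (0.81), Slc19a1 (0.80) and Sntb2 (0.80).

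Trpv2, a channel of myeloid and smooth muscle cells, was spread over macrophage-like (16.3 CPM in NC), T or NK-like (14.1), fibroblast-like (13.2), microglia-like (12.1) and pericyte-like cells (8.40), and each of these overlapped the next. In microglia-like cells its NC libraries had 13.3, 11.3 and 11.6 CPM and its CO libraries 10.5, 10.3 and 9.98 CPM. The CO libraries were all lower, with a log2 ratio of -0.24 whose interval of -0.51 to 0.04 held 0. In macrophage-like cells the CO libraries ran from 4.81 to 31.9 CPM around NC values of 12.5 to 23.1 CPM, and the ratio of 0.10 was -0.85 without the third CO library, -0.92 with doublets kept and -1.36 after thinning. T or NK-like cells had 12 to 23 counts a group and a ratio of -0.31, which was -1.34 without the second CO library and 0.14 without the third. Endothelial-like cells had 0.818 CPM in NC and 2.17 CPM in CO on 14 and 28 counts, and neuroblast-like cells 0.983 and 3.02 CPM on 3 and 27 counts. The endothelial-like ratio of 1.41 was 0.67 without the second CO library, and the neuroblast-like ratio of 1.62 was -0.02 after thinning. Trpv2 was most like Elf4 (0.93), Rap1gap2 (0.92), Runx1 (0.90), Map4k1 (0.90) and Bid (0.89), of which Runx1 and Elf4 are transcription factors of blood cells.

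Trpm2, the ADP-ribose-gated channel of myeloid cells, was highest in microglia-like cells and did not differ there beyond the spread between libraries. The NC libraries had 25.6, 30.0 and 23.1 CPM and the CO libraries 25.7, 28.1 and 28.2 CPM. They overlapped, and the log2 ratio was 0.06 (-0.11 to 0.24). Within microglia-like cells the P2ry12-led cluster had 45.1 CPM in NC and 48.0 CPM in CO, and the 2 largest clusters 24.1 and 22.4 CPM in NC and 23.8 and 20.1 CPM in CO. Macrophage-like cells had 5.57, 6.65 and 15.7 CPM in NC and 2.39, 4.81 and 5.47 CPM in CO, all CO libraries below NC, on 35 and 13 counts. That ratio of -1.10 was -0.48 without the third NC library and -0.20 with doublets kept. The other 9 classes did not reach 30 counts. The list of genes that supply ADP-ribose to TRPM2 had 5 measured members in each of microglia-like and macrophage-like cells, and none was at least 2-fold apart. Over all genes, 7.57% in microglia-like and 12.2% in macrophage-like cells were 2-fold apart in either direction, so a count of 0 among 5 says little about the list.

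Trpm3 (ENSRNOG00000027770), a steroid- and heat-gated channel, was counted at high levels in choroid plexus-like and astrocyte-like cells and was lower in CO in both. In choroid plexus-like cells the NC libraries had 2062, 1863 and 1947 CPM and the CO libraries 1405, 1430 and 1407 CPM. The CO libraries were all lower, with a log2 ratio of -0.47 (-0.51 to -0.43), and -0.30 when the cluster of 45 NC and 492 CO cells was left out. Choroid plexus-like cells had a median depth of 40122 counts in NC and 1698 in CO, and the interval does not cover this difference. Astrocyte-like cells had 1572, 1614 and 1618 CPM in NC and 1076, 1065 and 1351 CPM in CO, again without overlap, and a ratio of -0.45 (-0.57 to -0.34). Markers of choroid plexus in astrocyte-like cells were also lower in CO, at 643 to 748 CPM against 1455 to 1691 CPM in NC, with Kl and Cldn2 at 0 in both groups and Clic6 and Prlr at 0 in CO. By Ttr, the transthyretin gene of choroid plexus, free choroid plexus RNA would bring 15.2 Trpm3 counts to NC astrocyte-like cells, where 2698 were counted. The astrocyte-like cells were 2 clusters, and the one with nearly all Trpm3 counts had 1752 CPM in NC and 1362 CPM in CO.

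Fibroblast-like cells came next, with 128, 151 and 88.6 CPM of Trpm3 in NC and 66.3, 82.1 and 48.1 CPM in CO, all CO libraries lower (-0.94, interval -1.40 to -0.49). Ependymal-like cells had 70.5, 16.4 and 19.7 CPM in NC and 29.2, 10.9 and 12.1 CPM in CO. Their ratio of -0.99 was -0.02 without the first NC library, the highest of the 6. Neuroblast-like cells had the opposite order, 9.50 CPM in NC and 19.7 CPM in CO, with no overlap, a ratio of 1.05 (0.24 to 1.97) and 0.89 without the second NC library. In oligodendrocyte-like, microglia-like and endothelial-like cells of NC, the 391, 85 and 56 Trpm3 counts were below the 851, 210 and 97.3 that free choroid plexus RNA would bring by Ttr. In CO the oligodendrocyte-like and microglia-like counts, 185 and 111, were above the 24.8 and 78.9 it would bring, and the endothelial-like counts again below. Oligodendrocyte-like cells held 140673 Ttr counts in NC and 5920 in CO. Of their 391 NC Trpm3 counts, 111 lay in the low-count cluster of 1637 NC and 101 CO cells, whose class name depended on the clustering. The part of free RNA in these counts was not tested. The endothelial-like ratio of -1.08 compares 56 and 20 counts, where that RNA would bring 97.3 and 21.3. The macrophage-like ratio of 1.74 compares 9 and 24 counts, where it would bring 22.8 in NC and 6.38 in CO. Each of the 4 leading classes stood above the next in NC. The genes most like Trpm3 over the NC classes were Aifm3 (0.95), Hars2 (0.94), Mapk4 (0.93), Frem1 (0.93) and Adamts5 (0.91).

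Trpm4, the calcium-activated monovalent cation channel, was highest in fibroblast-like, pericyte-like and endothelial-like cells in both groups, lower in macrophage-like and microglia-like cells, and had no count in T or NK-like cells. In endothelial-like cells its NC libraries had 10.4, 10.0 and 8.49 CPM and its CO libraries 17.6, 12.4 and 12.8 CPM. CO was above NC in all libraries, with a log2 ratio of 0.57 (0.12 to 1.01). Microglia-like cells had 6.18, 6.97 and 5.27 CPM in NC and 4.10, 4.10 and 4.63 CPM in CO, all lower in CO, with a ratio of -0.51 (-0.92 to -0.11). Pericyte-like cells had 15.0 and 20.6 CPM, and the libraries overlapped. Endothelial markers in pericyte-like cells summed to 7622 to 7864 CPM in NC and 8587 to 10394 CPM in CO, all 10 above 0. Their part in the pericyte-like Trpm4 values was not tested. Fibroblast-like cells had 17.0 and 11.0 CPM on 40 and 20 counts with no overlap, a ratio of -0.63 that was -0.02 after thinning. The partners listed for TRPM4 (Abcc8, Kcnj11 and 3 calmodulin genes) had 3 measured members in each of microglia-like and macrophage-like cells, none 2-fold apart. Over all genes, 7.57% and 12.2% were 2-fold apart in these classes, so this says little about the list.

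Trpm7, the magnesium-permeable channel with its own kinase, reached 30 counts in all 11 classes and was never 2-fold apart. Its NC levels ran from 119 CPM in microglia-like cells to 222 CPM in fibroblast-like cells, and its CO levels from 113 CPM in fibroblast-like cells to 199 CPM in neuroblast-like cells. Fibroblast-like cells had 187, 280 and 195 CPM in NC and 85.3, 140 and 118 CPM in CO, so that the class highest in NC was lowest in CO, with a ratio of -0.97 (-1.32 to -0.64). Ependymal-like cells had 207 and 141 CPM, with all CO libraries lower (-0.55). Microglia-like cells had 121, 116 and 119 CPM in NC and 136, 131 and 131 CPM in CO, all CO libraries higher by a small ratio of 0.16 (0.08 to 0.25). In the NC order, a gap without overlap was found after neuroblast-like cells (178 CPM) and after oligodendrocyte-like cells (135 CPM). Of 8 genes of magnesium transport, 7 were measured in each of microglia-like and macrophage-like cells. None was 2-fold apart in microglia-like cells, and Mrs2, a mitochondrial magnesium channel (-1.62), and Cnnm3 (-1.06) were lower in macrophage-like cells with overlapping libraries. Over all genes, 7.57% were 2-fold apart in microglia-like cells and 6.76% were 2-fold lower in macrophage-like cells, and nothing is read from counts among 7 genes.

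Trpc6 (ENSRNOG00000006324), a diacylglycerol-gated calcium channel, had its highest levels in microglia-like and macrophage-like cells. In microglia-like cells the NC libraries had 550, 525 and 548 CPM and the CO libraries 441, 444 and 435 CPM. CO was lower in every library, with a log2 ratio of -0.30 (-0.34 to -0.26) on 19642 and 19728 counts. In macrophage-like cells the NC libraries had 588, 517 and 657 CPM and the CO libraries 294, 310 and 242 CPM. The groups did not overlap, and the 2.10-fold difference was -1.07 on the log2 scale (-1.24 to -0.91). It was between -0.79 and -0.98 with doublets kept (-0.79), with cells gated one by one (-0.79), after thinning (-0.95) and without the third NC (-0.98) or the third CO library (-0.96). In the NC order macrophage-like and microglia-like cells overlapped and both stood above pericyte-like cells (36.0 CPM), while in CO microglia-like cells stood above macrophage-like cells.

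Microglia markers were also lower in CO macrophage-like cells, at 270 to 478 CPM against 488 to 666 CPM in NC, with 8 of 10 above 0 and Siglech and Olfml3 at 0 in both groups, and their part in the Trpc6 values was not tested. The share of cells with a Trpc6 count was 56.7% in NC and 44.5% in CO macrophage-like cells, and 45.3% and 33.3% after thinning. In microglia-like cells it was 73.5% and 72.1%, and 52.4% and 46.3% after thinning. All of the 4 larger microglia-like clusters had lower values in CO: 515 and 404 CPM, 550 and 422 CPM, 560 and 474 CPM, and 813 and 502 CPM.

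**Figure D4:**
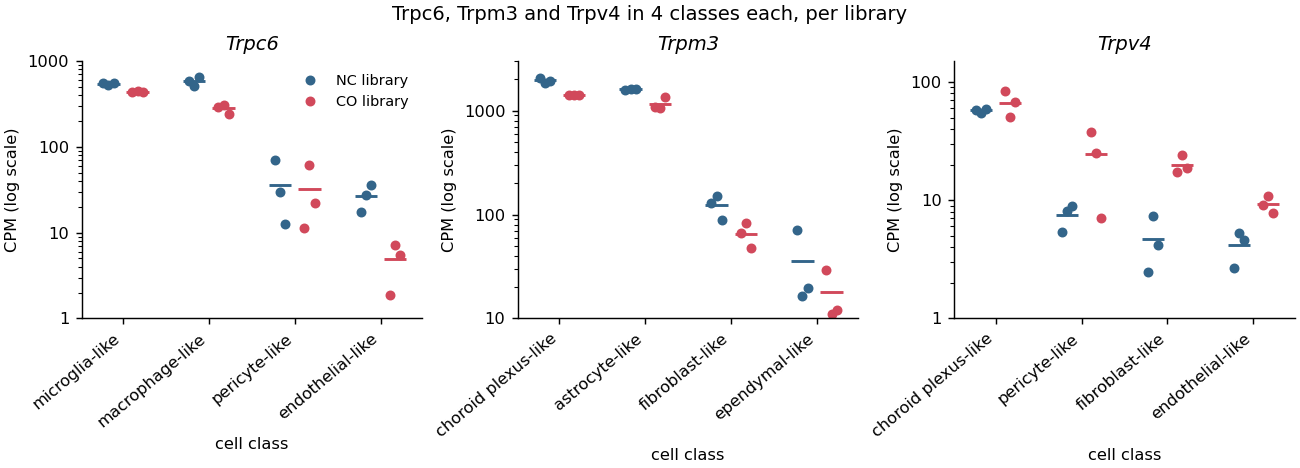
CPM on a log axis of Trpc6, Trpm3 and Trpv4 in 4 classes each, with a point for each library and a bar at the group value. Trpc6 and Trpm3 lie lower in all CO libraries of the leading classes, and Trpv4 overlaps between groups in choroid plexus-like cells.

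In other classes Trpc6 rested on few cells or on low counts. Endothelial-like cells had 17.3, 27.4 and 36.2 CPM in NC and 1.87, 7.24 and 5.47 CPM in CO, a ratio of -2.46. Of the 461 NC counts, 358 lay in a cluster of 66 NC and 0 CO cells, at a median depth of 12578.5 counts and 2566 CPM of microglia markers. Without that cluster the ratio was -0.40, and with doublets kept -0.35. Oligodendrocyte-like cells had 10.7 and 3.85 CPM (-1.47), and keeping doublets brought this ratio to -0.48. The 10 microglia markers there summed to 200 to 234 CPM in NC and 118 to 161 CPM in CO, all 10 above 0, lower in the same group as Trpc6, and their part in the ratio was not tested. Choroid plexus-like cells had 4.56 and 17.2 CPM (1.91), and 122 of the 175 CO counts came from the cluster that also held most Trpv3 counts there. Without it the ratio was 0.88. Fibroblast-like cells had 33.2, 14.7 and 6.92 CPM in NC, 44 counts, and no count in CO. With CO set to a floor of 3 counts over the group, it was 11.3-fold lower, which is not a lower bound. The 44 counts lay in 8 of 144 cells, the counting interval of the log2 ratio reached up to -2.08, and after thinning the ratio was -0.65 with an interval up to 1.47. Pericyte-like cells had 12.8 to 69.5 CPM in NC and 11.5 to 61.7 CPM in CO, and the ratio of -0.16 ran from -1.15 without the second CO library to 0.71 without the first NC library and 0.89 with cells gated one by one.

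Trpc1, a subunit that assembles with other TRPC proteins, was highest in oligodendrocyte-like cells, with 127, 131 and 119 CPM in NC and 120, 123 and 123 CPM in CO, which overlapped (-0.04, interval -0.15 to 0.07). Oligodendrocyte-like cells stood above all other classes in both groups. Fibroblast-like cells had 94.1 and 56.2 CPM (-0.74) and neuroblast-like cells 74.4 and 49.2 CPM (-0.60), each with all CO libraries lower. T or NK-like cells had 21.1, 29.6 and 22.1 CPM in NC and 48.5, 86.0 and 74.8 CPM in CO, all higher in CO, a ratio of 1.50 (0.67 to 2.36) on 40 and 73 counts. Endothelial-like cells had 7.24 and 2.71 CPM with all CO libraries lower, and the ratio of -1.42 was -0.08 with cells gated one by one. Microglia-like cells had 1.05 and 1.36 CPM, and without the second CO library the ratio of 0.38 turned to -0.67. Macrophage-like cells had 16 counts in NC and none in CO.

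**Figure D5:**
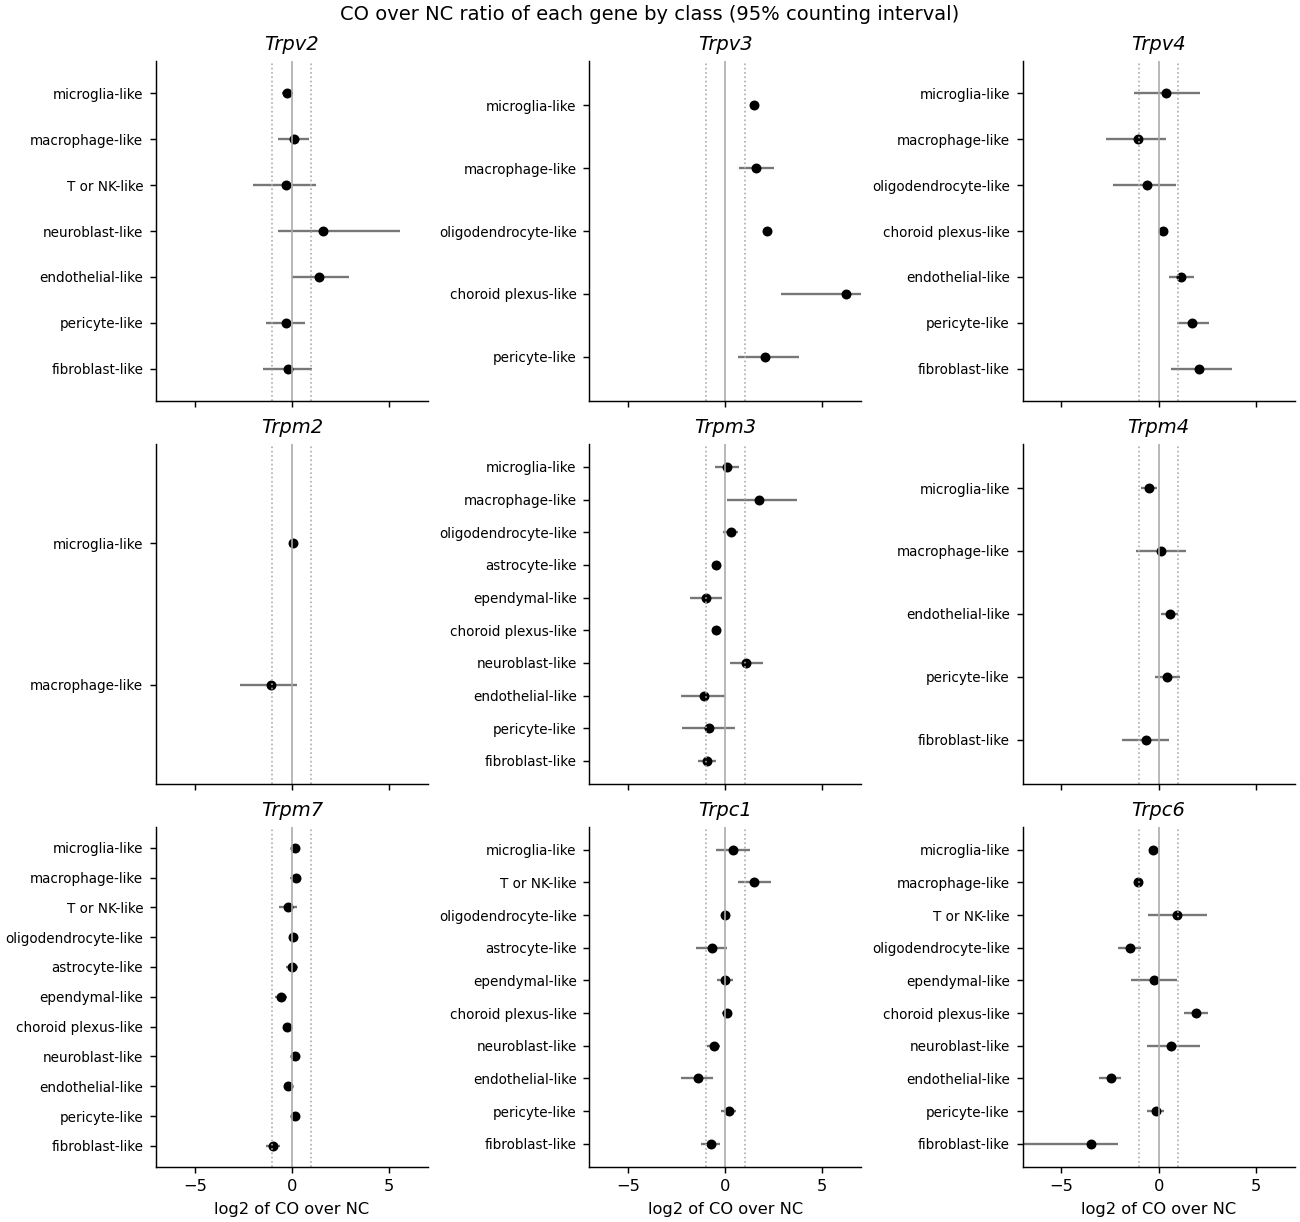
Log2 of the CO over NC ratio of each gene in each class with at least 30 counts, with 95% counting intervals, 1 panel a gene. Intervals wider than the axis are cut at its ends. Trpv3 lies right of 0 in all 5 of its classes, Trpm7 between -0.97 and 0.20, and Trpc6 at -0.30 in microglia-like and -1.07 in macrophage-like cells.

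Of 19 other TRP channel genes, 17 were in the files. In microglia-like cells 7 of them reached 30 counts, with a median log2 ratio of 0.07 against 0.00 over all 11681 genes measured there. Mcoln3 and Trpc7 were at least 2-fold higher in CO (3.48% of all genes were) and none at least 2-fold lower (4.09%), Mcoln3 at 0.441 and 0.959 CPM and Trpc7 at 4 and 28 counts. In macrophage-like cells 4 reached 30 counts, 1 of them 2-fold higher (5.44% of all genes) and 3 lower (6.76%). The mucolipins are cation channels of lysosomes: Mcoln2 had 0 to 3.98 CPM in the NC libraries and 7.30 to 23.1 CPM in the CO libraries, with no overlap (3.14, interval 1.39 to 5.53). Mcoln1 had 25.5, 29.1 and 17.2 CPM in NC and 5.98, 14.4 and 3.65 CPM in CO, all lower (-1.56, interval -2.62 to -0.62). Mcoln3 was lower as well (-1.42), and Pkd2, polycystin-2, had a ratio of -1.51 on 25 and 7 counts with overlapping libraries. Outside immune cells, Trpc4, of the TRPC group, was highest in pericyte-like cells, at 111 CPM in NC and 200 CPM in CO with no overlap (0.85). Endothelial markers in these cells were also higher in CO, at 8587 to 10394 CPM against 7622 to 7864 CPM in NC. Their part in the Trpc4 values was not tested. Trpa1, the irritant receptor, had 14.6 and 12.3 CPM in pericyte-like cells.

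The lists of genes upstream of and around the channels were read in microglia-like and macrophage-like cells, where 7.57% and 12.2% of all genes were 2-fold apart. Of the store-operated and endoplasmic reticulum calcium genes, 13 were measured in microglia-like and 12 in macrophage-like cells, and none was 2-fold apart, with medians of -0.38 and 0.02. Of 9 phospholipase C and G protein genes, 8 and 6 were measured. Plcb1 was lower in microglia-like cells (1.29 and 0.424 CPM, -1.61) and Plcb3 higher in macrophage-like cells (3.48 and 9.75 CPM, 1.49), each with no overlap. Of the mechanosensitive channels and TRPV4 partners, 4 were measured in each class, with 1 at least 2-fold lower in microglia-like and 3 in macrophage-like cells. Cav1, the caveolin that scaffolds membrane channels, had 33.1, 29.6 and 35.0 CPM in NC and 10.3, 8.88 and 11.0 CPM in CO in microglia-like cells, all lower (-1.70, interval -1.92 to -1.47). It also had 26 and 4 counts in macrophage-like cells (-2.37), where the libraries overlapped. Piezo2 (-1.36) and Kcnn4 (-1.19), a stretch-gated and a calcium-gated channel, had lower group values in macrophage-like cells with overlap. Among the neighbours of Trpv3 in macrophage-like cells, Aspa and Itgae (33.2 and 67.6 CPM, 1.03), an integrin subunit, were at least 2-fold higher in CO.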

How the data were processed

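Single-cell libraries of 3 NC and 3 CO samples were analysed from the counts per gene and cell that the authors deposited. The counts were made with Cell Ranger against Rnor_6.0, per the submitters' processing notes. Its version, the gene annotation and the strand setting are not given in the sources used here, and nothing in the labels describes cell filtering. The deposited values are whole numbers and were used as raw counts. The 9 genes and all gene lists were chosen with earlier results of these data known, and no p-value is given.

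Cells with at least 500 counts and 200 genes were kept. Doublets were called with Scrublet at an expected 0.8% per 1000 cells. It marked only 2 cells each in CO replicates 1 and 3, so the top 6% by doublet score were removed there (400 and 383 cells). Clusters were made with scanpy 1.11.5 and leidenalg 0.10.2 (2000 variable genes, 30 components, 15 neighbours, resolution 1) without the 27 TRP-named genes. A cluster was named where at least 3 of a class's markers were detected in 10% of its cells and raised 2-fold and its leading 10 genes did not go against the name. These thresholds were set after seeing the data, and 2869 cells stayed unnamed. Libraries shared 1 barcode.

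Counts were summed per library and class and scaled with the trimmed mean of M values of edgeR 4.0.16 in R 4.3.3, with no test. Ratios are given for at least 30 counts over both groups, with exact 95% binomial intervals. The functions were tested on simulated data. The genes named are the 9 members, other TRP genes with 30 counts in a class, genes of the related lists at least 2-fold apart in microglia-like or macrophage-like cells, and the 5 genes most alike in pattern for 4 members.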

Additional observations from a re-analysis of the deposited data

Results flagged for a closer look

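For 6 genes, all 3 CO libraries lay above all 3 NC libraries in one class and below them in another, and the difference between the classes was not tested. Over all pairs of gene and class, 17.8% lay wholly above and 18.0% wholly below. These are shares of single pairs. The share of all genes that lay above in one class and below in another was not computed, so nothing is read from the count of 6. Log2 ratios of CO over NC were as follows. Trpv2 had 1.62 in neuroblast-like and -0.24 in microglia-like cells. Trpm3 had 1.74 in macrophage-like and -1.08 in endothelial-like cells, on 9 to 56 counts a group. Trpm4 had 0.57 in endothelial-like and -0.63 in fibroblast-like cells. Trpm7 had 0.17 in pericyte-like and -0.97 in fibroblast-like cells. Trpc1 had 1.50 in T or NK-like and -1.42 in endothelial-like cells. Trpc6 had 1.91 in choroid plexus-like cells, where most CO counts came from 1 cluster, and -3.50 in fibroblast-like cells, computed against a floor of 3 counts because CO had none, and -0.65 after thinning.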

How the results depend on the processing

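No paired analysis was possible because the levels and ratios are a description and no result comes from a test. Of 951 values of the 67 ratios under the alternatives run, 50 changed sign, in 24 of the ratios, 11 of them after thinning. Of the 951, 895 stayed within the counting interval of the ratio as reported and did not reverse a ratio at least 2-fold apart. The alternatives were total-count and median-ratio scaling, a minimum of 2000 counts per cell, thinning to 2000 counts, doublets kept, gating cell by cell, resolution 0.5 and leaving out each library. Halved values and leaving out 2 clusters were chosen after seeing the data.

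Among the 22 ratios at least 2-fold apart, 3 changed sign, after thinning: Trpv2 in neuroblast-like cells (-0.016), Trpv4 in fibroblast-like cells (-0.43) and Trpv4 in pericyte-like cells (-0.55). Of smaller ratios, 13 values changed sign past the interval, among them Trpv4 in choroid plexus-like cells after thinning (-1.11), Trpv2 in macrophage-like cells (as low as -1.36), Trpc1 in microglia-like cells without the second CO library (-0.67), Trpc6 in pericyte-like cells gated one by one (0.89) and Trpc6 in T or NK-like cells (0.95; -0.66 with doublets kept, -0.85 after thinning). Trpv3 in oligodendrocyte-like cells (2.16) was 2.40 after thinning and 1.97 with each value halved and rounded up. Its ratio in microglia-like cells ranged from 1.40 to 1.63 and in macrophage-like cells from 1.24 to 2.25. The 22 member pairs at least 2-fold apart became 14 of 44 after thinning, 14 of 58 with halved values, 33 with a minimum of 10 counts, 35 of 94 with no minimum and 18 to 23 without 1 library. Of these 22, 315 alternative ratios kept direction and 2-fold size in 270 cases and direction only in 42. Over all genes, 14376 of 110347 pairs were 2-fold apart, and 7119 after thinning, 23366 with a minimum of 10 counts and 29751 with no minimum. The cause of these changes was not tested. The counting intervals of 34 of the 67 ratios held 0, so no difference was detectable there at this depth.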

Other observations

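Barcodes below the filter on counts or genes, 2350 in NC and 1916 in CO, held RNA of several classes together. Trpm3 had 73 counts (82.7 CPM) in the NC and 58 (77.0 CPM) in the CO barcodes, and Trpc6 65 counts (73.6 CPM) and 42 (55.8 CPM). Trpv3 had 6 counts (6.80 CPM) and 9 (11.96 CPM), below its levels in microglia-like and oligodendrocyte-like cells of the same group. Aspa had 265 CPM and 272 CPM in these barcodes, against 534 and 1023 CPM in microglia-like cells.

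In cells of classes too small to compare, Trpv2 had 29.6 CPM in NC and 24.0 CPM in CO smooth muscle-like cells (17 and 14 counts, 55 and 45 cells), above its level in every compared class. Trpm7 in the same cells had 158 CPM and 63.3 CPM, with all CO libraries below NC.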
